A study of Mus musculus with 2 samples.

Results

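Of 10 genes for glycolytic enzymes, from hexokinase to lactate dehydrogenase, 8 had a signal measured in Lin-c-kit+Sca1+ (LSK) cells sorted from mouse bone marrow. LSK cells are negative for the antigens of mature lineages and positive for Kit, which binds stem cell factor, and for Sca-1. They are a mixed fraction of haematopoietic stem cells and multipotent progenitors. The genes were Hk2, Gpi1, Pfkl, Aldoa, Tpi1, Pgk1, Pgam1, Eno1, Pkm and Ldha, chosen by their place in the pathway. They were chosen with earlier results of these data known, and other isozymes of these steps and Gapdh are not among them. The 8 were named by 11 of the 12422 probe sets other than controls on an Affymetrix expression array, which named 8251 genes in all. No probe set was named for Gpi1 or Eno1 in the annotation used, so they have no value here, and only their promoter sequences are described. The data are 2 samples of 1 group, called sample 1 and sample 2 after their titles, with 1 array each. The labels give no treatment, genotype, strain, age or second condition, and leave unsaid whether separate animals or sorts gave them. The spread between them may therefore be technical, and no test or p-value is given for any gene. The RNA went through 2 rounds of amplification, per the labels.

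Glycolysis splits glucose into pyruvate in the cytosol and yields ATP without oxygen. Its first steps spend ATP to trap and cleave the sugar, and its later steps return ATP and NADH. Lactate dehydrogenase then turns pyruvate into lactate, which restores the NAD+ that the pathway consumes. Haematopoietic stem cells in the marrow are known for leaning on this route more than on respiration, and the hypoxia-inducible factor HIF-1 is known to activate many of its genes.

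A match to the core of the DNA element that HIF-1 binds stood in the promoter windows of most of these genes. The sequences shown are those of Pgk1, Pgam1, Ldha and Tpi1, higher in sample 1, and of Pkm, higher in sample 2. Whether matches go with the direction of the differences was not tested. Each window runs from 250 bases before to 50 bases after a RefSeq transcription start of GRCm38.p6 and is read along the gene's strand, and all 10 genes had at least 1 of 16 such windows. The core was searched as ACGTG and as GCGTG on both strands, with an overlapping pair in the palindrome CACGTG counted as 1 match. Capitals mark the matches, which read CACGT or CACGC where the core lies on the opposite strand.
Pgk1 promoter, chrX:106186850-106187149, plus strand: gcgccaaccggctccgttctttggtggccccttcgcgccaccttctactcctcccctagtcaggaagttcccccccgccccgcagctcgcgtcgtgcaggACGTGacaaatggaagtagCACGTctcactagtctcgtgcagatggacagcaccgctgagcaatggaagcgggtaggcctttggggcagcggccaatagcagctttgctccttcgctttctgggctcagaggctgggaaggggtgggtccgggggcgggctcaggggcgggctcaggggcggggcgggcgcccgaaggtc
Pgam1 promoter, chr19:41911621-41911920, plus strand: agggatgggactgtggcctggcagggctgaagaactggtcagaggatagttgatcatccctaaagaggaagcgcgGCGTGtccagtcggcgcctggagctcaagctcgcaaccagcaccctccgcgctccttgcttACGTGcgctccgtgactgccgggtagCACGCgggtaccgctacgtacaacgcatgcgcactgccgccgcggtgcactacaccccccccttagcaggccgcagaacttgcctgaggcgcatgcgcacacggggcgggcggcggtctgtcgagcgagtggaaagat
Ldha promoter, chr7:46845554-46845853, plus strand: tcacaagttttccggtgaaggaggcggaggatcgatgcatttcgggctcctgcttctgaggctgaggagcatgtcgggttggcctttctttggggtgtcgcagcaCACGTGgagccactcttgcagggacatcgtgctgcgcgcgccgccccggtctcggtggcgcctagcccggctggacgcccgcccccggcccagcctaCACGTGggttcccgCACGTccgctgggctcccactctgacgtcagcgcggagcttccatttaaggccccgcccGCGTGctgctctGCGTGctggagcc
Tpi1 promoter, chr6:124814109-124814408, minus strand: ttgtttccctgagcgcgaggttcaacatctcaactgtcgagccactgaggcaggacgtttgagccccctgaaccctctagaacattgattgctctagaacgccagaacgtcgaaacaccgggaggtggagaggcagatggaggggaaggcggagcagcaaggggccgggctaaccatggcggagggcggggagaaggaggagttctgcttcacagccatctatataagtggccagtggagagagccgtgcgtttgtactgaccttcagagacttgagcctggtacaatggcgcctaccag
Pkm promoter, chr9:59656977-59657276, plus strand: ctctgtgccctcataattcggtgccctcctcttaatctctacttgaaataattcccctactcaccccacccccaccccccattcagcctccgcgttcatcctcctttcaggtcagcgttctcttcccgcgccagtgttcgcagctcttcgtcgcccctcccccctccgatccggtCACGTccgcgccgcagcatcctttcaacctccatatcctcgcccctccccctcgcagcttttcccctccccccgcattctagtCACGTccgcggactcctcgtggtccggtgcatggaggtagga
Of the 16 windows, 12 held at least 1 match, against 43.8% of the 32851 promoter windows of the whole RefSeq table. By gene, 8 of 10 had a match in a window, against 46.7% of 27025 genes. The Ldha window shown held the most, 5 matches, of which 2 lay in the palindrome CACGTG, also known as an E-box that Myc binds. The palindrome stood in 1 of the 16 windows and in 7.15% of all windows. Pgam1 had 3 matches, while Hk2, Pgk1, the second Ldha window and the Pkm window shown had 2 each. Pfkl had 1, as had 2 overlapping windows of Aldoa. The 3 windows of Eno1 had 2 each, and 2 of these windows overlap and share their matches. The count of 12 windows thus holds some matches more than once. The windows of Tpi1 and Gpi1, the other Pkm window and the third Aldoa window held none. The glycolytic windows were also richer in G and C, at a median of 65.0% against 52.67% over all windows. A match is a string of letters and not evidence of binding.

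All 8 measured enzymes had a signal above the array's background in both samples, and 5 of them were 2-fold or more higher in sample 1. None was 2-fold higher in sample 2. The background, or control level, was the 90th percentile of the array's 15 probe sets against bacterial transcripts, 12.1 in sample 1, against 8.91 in sample 2. Of all 8251 genes, 57.0% passed it in both samples, 64.3% in sample 1 taken alone and 71.0% in sample 2 taken alone. Signals are on a linear scale after quantile normalization of both arrays, and log2 values were taken after raising signals under 20 to 20. Of the genes above the control level, 11.0% were 2-fold or more higher in sample 1 and 9.62% were 2-fold or more higher in sample 2. The median difference of log2 signal, sample 1 minus sample 2, corresponded to 2.01-fold over the 8 glycolytic genes and was 0 over all 4707 genes above the control level. In a bulk sample, fewer cells of a type and less RNA per cell cannot be told apart.

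**Figure D1:**
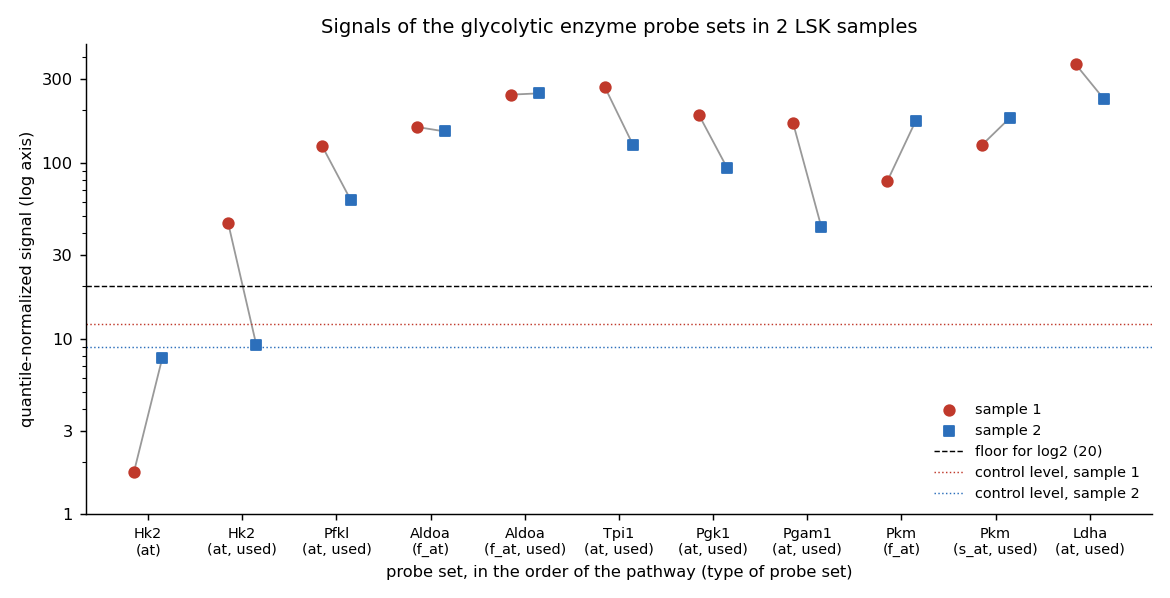
Quantile-normalized signal (log axis) of each probe set of the 8 measured enzymes in sample 1 (circles) and sample 2 (squares), in pathway order, with the floor of 20 (dashed) and the control levels (dotted). Tpi1, Pgk1, Pgam1 and Pfkl sat higher in sample 1, the 2 Pkm probe sets sat higher in sample 2, and the 2 Aldoa probe sets were nearly level.

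The genes of the steps that trap and cleave the sugar were mixed. Hk2, which encodes the inducible hexokinase that phosphorylates glucose on entry, read 45.4 in sample 1, against 9.15 in sample 2. Sample 2 lay just over its control level and under the floor, so Hk2 was at least 2.27-fold higher in sample 1. Its other probe set was below the control level in both samples, with 1.75 and 7.75, and did not bear this out. Pfkl, the liver-type phosphofructokinase and a main control point of the pathway, had 124 in sample 1, against 61.7 in sample 2 (mean log2 signal 6.45 ± 0.71, SD, n = 2). That difference, 2.01-fold, lay on the threshold. Aldoa, the aldolase that cleaves the sugar, had 244 in sample 1, against 249 in sample 2 (7.95 ± 0.02, SD, n = 2). A second Aldoa probe set gave 160 and 151. The samples were thus nearly level for Aldoa by both probe sets, and the sign of its small difference changed with the scaling.

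Among the steps after the cleavage, 3 successive members were higher in sample 1. Tpi1, the triosephosphate isomerase that makes the whole of the cleaved sugar usable, read 270 in sample 1, against 126 in sample 2, a 2.14-fold difference (7.53 ± 0.77, SD, n = 2). Pgk1, the phosphoglycerate kinase of the first ATP-forming step, had 187 in sample 1, against 93.3 in sample 2, just over 2-fold apart (7.05 ± 0.71, SD, n = 2). Pgam1, the phosphoglycerate mutase, had 168 in sample 1, against 43.0 in sample 2, 3.90-fold apart (6.41 ± 1.39, SD, n = 2). This was the largest difference among the members with both signals above the floor. Each of these 3 genes had a single probe set, so none could be checked against another.

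The last steps went in opposite directions. Pkm, which encodes the muscle-type pyruvate kinases M1 and M2 by alternative splicing, read 126 in sample 1, against 180 in sample 2 (7.23 ± 0.37, SD, n = 2). By the second Pkm probe set the signals were 78.8 and 172.9, 2.19-fold higher in sample 2. Both Pkm probe sets were therefore higher in sample 2, by 0.52 and 1.13 on the log2 scale, and the table does not say which splice form either reads. Ldha, the main subunit of lactate dehydrogenase in proliferating cells, had 363 in sample 1, against 231 in sample 2, 1.58-fold apart (8.18 ± 0.46, SD, n = 2). Ldha was thus higher in sample 1, by less than 2-fold.

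Against all genes, the enzymes as a list differed more between these samples, though Aldoa was nearly level and Pkm lay near the median gene. With 2 samples an SD only restates the size of the difference, so it is no separate result. The enzymes' median SD of log2 signal between the samples was 0.71, against 0.32 over all genes above the control level. The latter include genes under the floor in both samples, whose SD is 0. Over the 3330 genes with both signals above the floor it was 0.37. Among the 7 enzymes with both signals above the floor of 20, 4 were 2-fold or more higher in sample 1, against 11.9% of 3330 such genes, while 10.7% of those were 2-fold or more higher in sample 2. Of the same 3330 genes 50.2% were higher in sample 1 by any amount and 49.7% in sample 2, and of the 7 enzymes 5 were higher in sample 1. Among all 4707 genes above the control level the shares were 47.1% and 43.3%, the rest having equal values, mostly at the floor, and of the 8 enzymes 6 were higher in sample 1. At 1.5-fold the count was 6 of 8, against 22.5% of genes higher in sample 1 and 19.4% higher in sample 2. At 3-fold it was 1 of 8, against 3.53% and 3.06%. Pfkl and Pgk1 lay so close to 2-fold that the count depends on the scaling. It was 3 of 8 with median-centred signals, beside 10.2% of all genes in each direction. It was 5 of 8 with the deposited signals, beside 12.6% of all genes higher in sample 1 and 8.22% higher in sample 2.

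**Figure D2:**
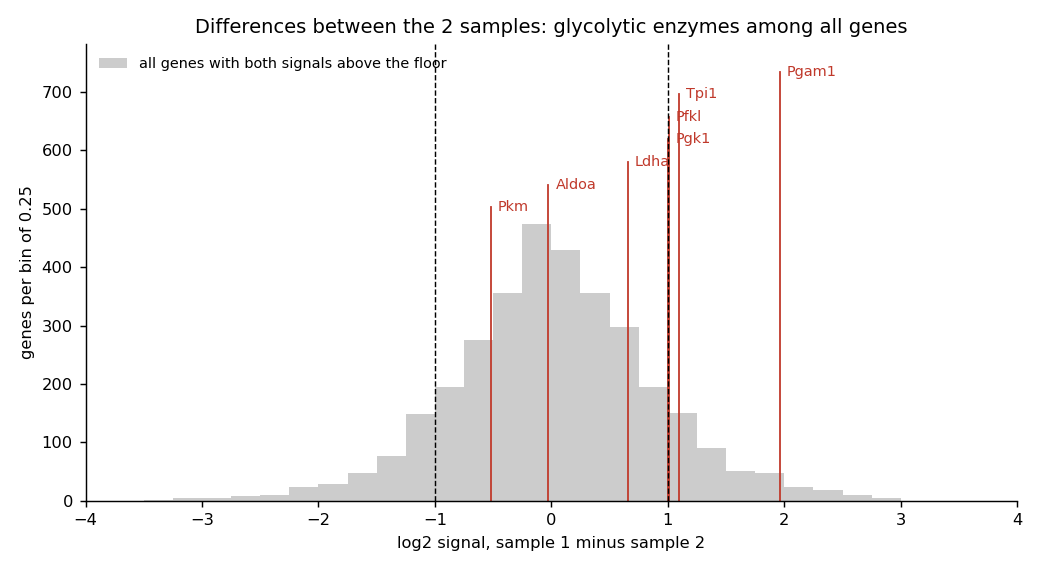
Histogram of the difference in log2 signal, sample 1 minus sample 2, over 3330 genes with both signals above the floor (grey), with 7 glycolytic genes as red lines and dashed lines at 2-fold. Pgam1 lay farthest to the right at 1.96 and Pkm farthest to the left at -0.52, and Hk2 is left out because its sample 2 signal was under the floor.

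Aldoa and Pkm, of which Aldoa was nearly level, had another kind of probe set than the genes higher in sample 1. The 6 genes higher in sample 1 were read by plain probe sets, with a median difference of 1.05. Aldoa and Pkm were read only by probe sets marked f or s on this array, a mark for probes that several related transcripts share. Over all probe sets with both signals above the floor, the median difference was 0.03 for 3236 plain ones, -0.03 for 457 marked f and -0.01 for 130 marked s. The part of the shared probes in the values of Aldoa and Pkm was not tested.

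Gapdh, the dehydrogenase between Tpi1 and Pgk1, was no member and gave different answers by probe set. A probe set that also names the pseudogene Gapdh-ps15 and another gene had 748.8 in both samples. Another, which also names that pseudogene, had 54.6 in sample 1, against 41.7 in sample 2, 1.31-fold apart. The array's own Gapdh control probe sets, left out of all counts, read the 3′ end, the middle and the 5′ end of the transcript. The 3′ one had 2172 in sample 1, against 1498 in sample 2, the middle one 505 and 270, and the 5′ one 193 and 78.9. The differences of these were 1.45-fold, 1.87-fold and 2.45-fold, so they grew towards the 5′ end.

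**Figure D3:**
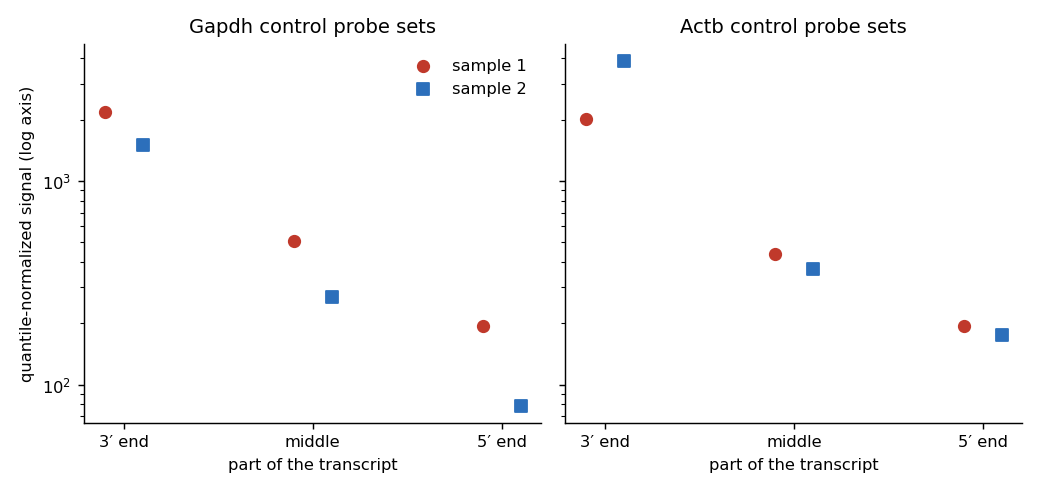
Quantile-normalized signal (log axis) of the control probe sets for the 3′ end, middle and 5′ end of Gapdh (left) and beta-actin, Actb (right), in sample 1 (circles) and sample 2 (squares). The ratio of 3′ to 5′ signal was 11.2 in sample 1, against 19.0 in sample 2 for Gapdh, and 10.4 and 22.2 for Actb.

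The ratio of 3′ to 5′ signal, a measure of RNA quality and of how far amplification reached, was higher in sample 2 for both control transcripts. It was 11.2 in sample 1, against 19.0 in sample 2 for Gapdh, and 10.4 and 22.2 for the beta-actin gene Actb. Sample 2 therefore had the weaker 5′ signal relative to 3′ signal, beside its lower signals for 6 of the 8 enzymes. The Actb 3′ probe set went the other way from the Gapdh one, with 2012 in sample 1, against 3875 in sample 2. Where in each transcript the enzymes' own probes lie was not used here, and the part of this ratio in the enzymes' differences was not tested.

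Other isozymes of the same steps had no common direction. Of 12 with a probe set, 6 passed the control level in both samples, near the 57.0% of all genes, and their median difference was -0.01 (0.11 with the deposited scaling), with 3 higher in sample 1 and 3 higher in sample 2. Hk1, the constitutive hexokinase, had 73.5 in sample 1, against 116 in sample 2, the opposite direction to Hk2. Pfkm, the muscle-type phosphofructokinase, had 50.8 in sample 1, against 30.7 in sample 2, the same direction as Pfkl. Gapdhs, the sperm form of the dehydrogenase, had 85.9 in sample 1, against 23.9 in sample 2, 3.59-fold apart, but its other probe set had 5.30 and 2.45. Ldhb, the heart-type lactate dehydrogenase subunit, had 21.9 in sample 1, against 33.9 in sample 2, opposite to Ldha. The 6 isozymes not above the control level were the platelet-type phosphofructokinase Pfkp, the neuronal enolase Eno2, the aldolase Aldoc, the muscle mutase Pgam2, the testis kinase Pgk2 and the testis dehydrogenase Ldhc.

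No transporter or regulator of the pathway above the control level was 2-fold apart. Only 3 transporters and 4 regulators had both signals above the floor, too few for a count of 0 to stand out. Of 8 measured genes of glucose and lactate transport, 3 were above the control level, beside 57.0% of all genes, and 0 were 2-fold apart. The glucose transporter gene Slc2a3 had 21.9 in sample 1, against 28.1 in sample 2. Its other probe set had 14.15 and 7.95, under the floor in both samples. Slc2a5, a fructose transporter gene, had 25.1 in sample 1, against 24.1 in sample 2. Bsg, whose product escorts lactate transporters to the membrane, had 98.4 and 65.8. Slc2a1, the widespread glucose transporter, and the lactate transporter gene Slc16a1 were not above it. Of 12 measured regulators 8 were above the control level, and 0 were 2-fold apart, beside 11.0% and 9.62% of all genes in the 2 directions. Epas1, Egln1 and Myc were under the floor in both samples, and the 4 regulators with both signals above it had a median difference of 0.20. Hif1a, the oxygen-regulated subunit of HIF-1, had 285 in sample 1, against 228 in sample 2, and 233 and 126 by another probe set. Pdk1, a kinase that inhibits pyruvate dehydrogenase, had 53.4 in sample 1, against 46.3 in sample 2. Pfkfb3, whose product makes the activator of phosphofructokinase, had 26.8 in sample 1, against 23.4 in sample 2.

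Of 9 other genes known as HIF-1 targets, 5 were above the control level, beside 57.0% of all genes. Of these 5, 1 alone, Ndrg1, had both signals above the floor, so their median is not given. Ndrg1, a stress-responsive gene, was 2-fold or more higher in sample 1, with 73.4 in sample 1, against 27.1 in sample 2 and, by another probe set, 89.1 and 8.40. The angiogenic factor gene Vegfa was not above the control level, and Bnip3, a mitophagy gene, was above it but under the floor in both samples. Ddit4, an inhibitor of mTOR signalling, went the other way, with 4.13 in sample 1, under the control level, against 87.3 in sample 2, so it was at least 4.37-fold higher in sample 2.

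The tricarboxylic acid cycle, which burns the pyruvate that glycolysis supplies, differed in the same direction as the glycolytic enzymes. Of 16 measured genes 14 were above the control level, beside 57.0% of all genes. Of these 14, 12 were higher in sample 1, and 6 were 2-fold or more higher in sample 1, against 0 in sample 2. Among all genes above the level, 47.1% were higher in sample 1. The shares 2-fold or more higher were 11.0% in sample 1 and 9.62% in sample 2. The median difference of the cycle's genes was 0.78, and between 0.74 and 0.84 with the median-centred and the deposited scaling. Mdh2, the mitochondrial malate dehydrogenase, had 897 in sample 1, against 210 in sample 2. Sdhb, the iron-sulphur subunit of succinate dehydrogenase, had 305 in sample 1, against 53.3 in sample 2, and the membrane anchor gene Sdhd had 152 and 41.7. Fh1, fumarase, had 115 in sample 1, against 30.6 in sample 2, and Idh3g, an isocitrate dehydrogenase subunit, had 214 and 78.4. The other Idh3g probe set had 3.25 and 8.95, under the floor in both samples. Mdh1, the cytosolic malate dehydrogenase, went the other way with 28.5 in sample 1, against 47.1 in sample 2.

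The entry into that cycle and the side branches were mixed. Of 4 pyruvate dehydrogenase complex genes, all above the control level, 2 were higher in each sample, and Pdhb had 35.1 in sample 1, against 63.2 in sample 2, while Dlat had 36.0 and 37.9. Pdha1, the catalytic subunit's alpha chain, had 42.8 in sample 1, against 13.5 in sample 2, at least 2.14-fold apart. The pentose phosphate pathway, which makes NADPH and ribose, showed 7 of 8 genes over the control level, beside 57.0% of all genes. Its 6 genes with both signals above the floor had a median difference of 0.32 (0.08 over all 7). In it Taldo1, transaldolase, was 3.45-fold higher in sample 1, with 206 against 59.6 in sample 2, while Tkt, transketolase, had 111 in sample 1, against 116 in sample 2. Rpia had 129 in sample 1, against 78.2 in sample 2, and Pgd had 68.6 and 46.3. The other Pgd probe set had 11.4 in sample 1, under the control level, against 21.2 in sample 2.

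Gluconeogenesis genes, which encode the reverse route, were above the control level in 4 of 7 cases, beside 57.0% of all genes, and went in both directions. Pck2, the mitochondrial carboxykinase, was 3.10-fold higher in sample 2, with 27.4 in sample 1, against 84.7 in sample 2, and its other probe set had 33.1 and 66.6. G6pc3, the widespread glucose-6-phosphatase, went the other way with 112 in sample 1, against 15.4 in sample 2, at least 5.60-fold apart. Fbp1, the fructose bisphosphatase, had 31.95 in sample 1, against 57.0 in sample 2, and G6pc, the liver glucose-6-phosphatase, had 40.3 and 37.1. Of 8 measured glycogen genes 5 passed the control level, and the 4 with both signals above the floor had a median difference of 0.10. Gys1, glycogen synthase, had 68.9 in sample 1, against 22.8 in sample 2, Ugp2, which makes the sugar nucleotide it uses, had 20.5 and 32.2, and Gyg, the primer protein glycogenin, had 58.9 and 48.9.

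**Figure D4:**
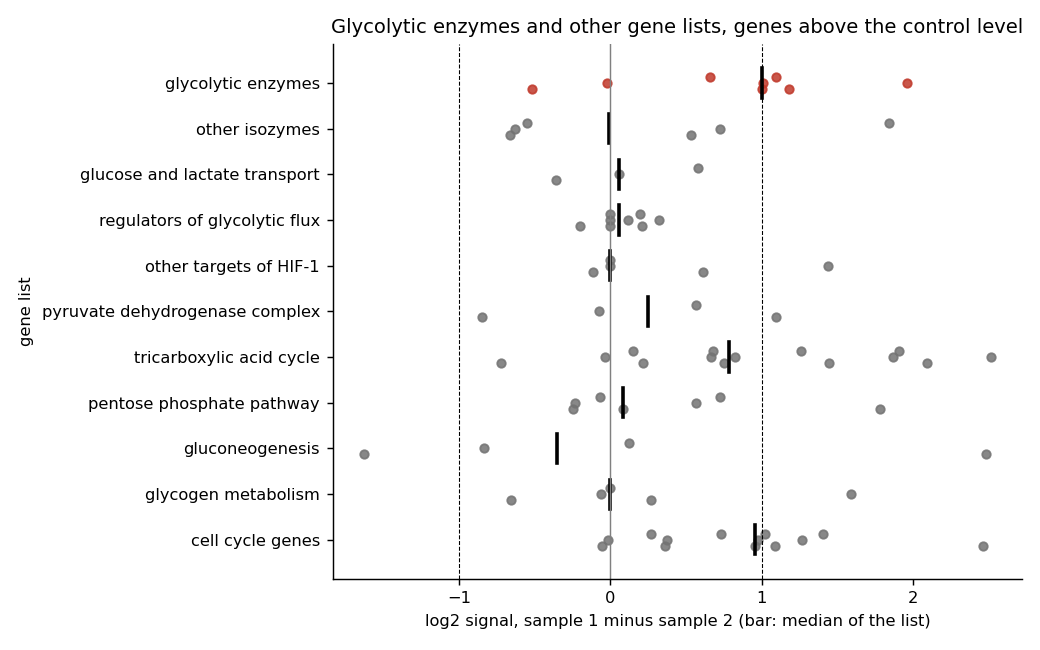
Difference in log2 signal, sample 1 minus sample 2, of each gene above the control level (points) in the glycolytic list (red) and 10 other lists (grey), with list medians as black bars, 2-fold as dashed lines and genes under the floor in both samples at 0. The medians of the glycolytic (2.01-fold), cell cycle (0.96 on the log2 scale) and tricarboxylic acid cycle (0.78 on the log2 scale) lists lay to the right of the others.

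Markers of cell type and growth also differed between the samples, often by single genes and in both directions. Stem and progenitor markers passed the control level in 8 of 8 cases, beside 57.0% of all genes. Their summed signals were 2129 in sample 1, against 3739 in sample 2. Lyl1, a transcription factor gene of blood progenitors, made most of that gap with 695 in sample 1, against 2224 in sample 2, and without it the sums were 1434 and 1515. The cytokine receptor gene Flt3 had 137 in sample 1, against 322 in sample 2, while the progenitor factor gene Myb went the other way with 490 and 232. Kit itself had only 25.8 in sample 1, against 19.4 in sample 2.

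Myeloid granule markers passed the control level in 8 of 9 cases, beside 57.0% of all genes. They summed to 3143 in sample 1, against 1824 in sample 2. That direction came from Mpo, myeloperoxidase, at 1862 in sample 1, against 288 in sample 2. Without Mpo the sums were 1281 and 1536, the opposite direction. The protease gene Elane had 220 in sample 1, against 88.4 in sample 2, whereas the later granule genes Camp (91.9 and 269) and Ngp (60.0 and 275) were higher in sample 2. Of the red cell markers 4 of 6 passed, with sums of 866 and 1015, or 836 and 344 without the globin gene Hba-a1. Hba-a1 had 30.1 in sample 1, against 670 in sample 2, while the carbonic anhydrase gene Car1 (488 and 75.9) and the erythroid factor gene Klf1 (215 and 80.5) were higher in sample 1. Lymphoid markers passed in 4 of 9 cases, with sums of 207 and 511, or 124 and 138 without Dntt, the terminal transferase gene, at 83.3 and 374. The B cell genes Ms4a1 (28.3 and 43.5) and Cd79a (32.8 and 31.2) were near the floor. Cd4, Cd8a and the Cd3 genes of T cells lay at or under 9.80 in both samples, by the probe sets used. Platelet markers passed in 1 of 3 cases, Vwf at 33.0 and 53.8, with sums of 59.1 and 84.6. No marker of these lists had a signal of 0 in both samples.

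Of all genes above the control level 47.1% were higher in sample 1. Of 13 cell cycle genes above it, 11 were higher in sample 1, with a median difference of 0.96. The replication helicase genes Mcm7 (153 in sample 1 and 27.7 in sample 2), Mcm3 (191 and 72.0) and Mcm5 (250.2 and 103.9) and the mitotic gene Cdc20 (315 and 148) were among them. The 2 not higher in sample 1, the helicase gene Mcm2 (112 and 113) and Mki67 (36.35 and 37.8), were nearly level. Of the other helicase genes, Mcm4 had 30.25 in sample 1, against 23.6 in sample 2, and Mcm6 was not above the control level. The part of cell composition and of cycling cells in the glycolytic difference was not tested.

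The direction of the glycolytic differences held under the 5 alternatives tried for single genes, Aldoa excepted, but most of these could not reverse it. An offset keeps the sign of a probe set's difference. Dropping the floor or averaging probe sets leaves a gene with a single probe set and both signals above the floor unchanged. For such genes only the other scalings could change the direction. Pgam1 lay between 1.41 and 2.05 under 5 alternatives, Tpi1 between 0.93 and 1.17, Pgk1 between 0.81 and 1.07, Pfkl between 0.74 and 1.09, and Ldha between 0.57 and 0.71. Pkm stayed negative, between -0.83 and -0.43. Hk2 ranged most widely, from 0.59 to 2.31, since its value depends on the floor and on the weight given to its second probe set.

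**Figure D5:**
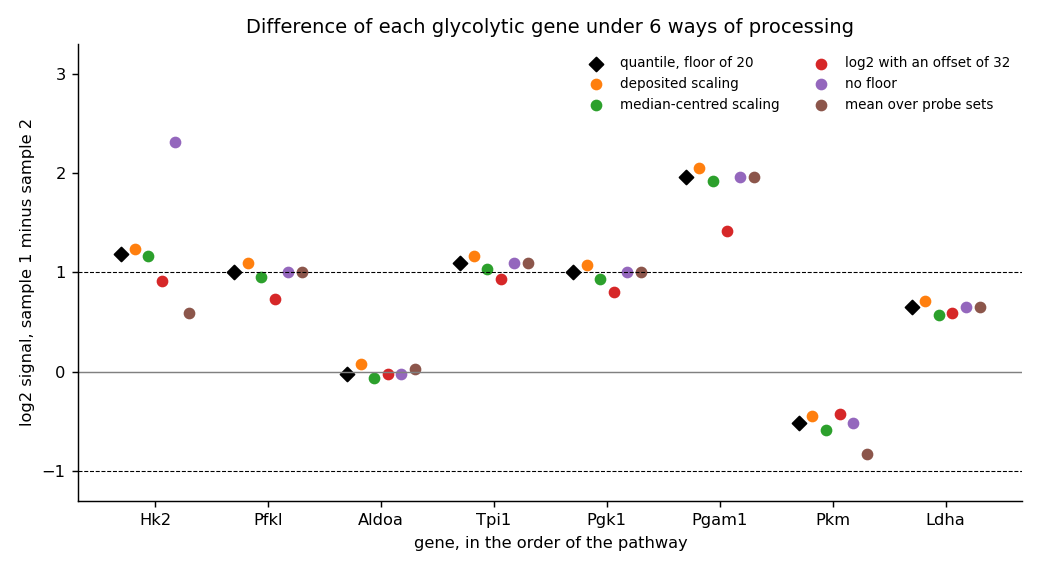
Difference in log2 signal, sample 1 minus sample 2, of each measured glycolytic gene as reported (diamonds) and under 5 alternatives (circles), in pathway order, with dashed lines at 2-fold. Points of 6 genes stayed above 0, those of Pkm below it, and those of Aldoa on both sides of it, from -0.06 to 0.08.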

How the data were processed

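The files hold 12488 probe sets with 1 linear signal intensity each per sample, as deposited. The summarising and scaling software is not given in the sources. Both intensity columns had a mean of 53.9, but their 2% trimmed means, 32.8 and 30.9, differed by 6.15%, so both arrays were quantile-normalized. Signals under 20 were set to 20 before log2. No detection calls or probe-level values were used, and the number of arrays, 2, limits the precision. Genes were named from the platform's annotation table and the GRCm38.p6 gene table: 10833 probe sets named 1 gene, 396 several (left out of gene values) and 1193 none, and 66 control probe sets were left out. For a gene with several probe sets, the strongest by mean log2 signal gave its value, and 1 probe set over the control level in both samples was enough to count it as above.

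The members and lists were chosen with earlier results of these data known. Named were all members and, of each other list, the 3 genes above the control level with the largest difference and both signals above the floor, and those 2-fold apart with a signal over 100. Ldhb, Pdha1, Tkt, Ddit4, Epas1, Egln1, Myc, Mdh1, Slc2a1, Slc16a1, Vegfa, Bnip3 and the isozymes not above the control level were added after their values were seen, as were Kit and the T cell genes. So were Mcm2, Mcm4, Mcm6 and Mki67, and the second probe sets of Slc2a3, Idh3g and Pgd. Sums without 1 gene were also chosen after seeing the data. Alternatives were other scalings, an offset of 32, no floor, no filter, the mean over probe sets and other control levels. The normalization was tested on simulated data. Python 3.11.15, numpy 2.4.6, pandas 2.3.3 and scipy 1.17.1 were used. Promoter sequences are from RefSeq, GRCm38.p6.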

Additional observations from a re-analysis of the deposited data

How the results depend on the processing

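The count above the control level stayed at 8 of 8 with the deposited and the median-centred scaling and with the control level at the median of the bacterial probe sets, where 57.0%, 57.0% and 85.4% of all genes passed. These settings could hardly change the count. The scalings keep the order of probe sets within an array, and the median is a lower level. In either sample alone (without replicate 1 or without replicate 2) the count was 8 of 8, against 71.0% and 64.3% of all genes. It had to be, since genes above the level in both samples are above it in each. Stricter levels could lower the count. It was 7 with the level at their maximum, against 53.0% of all genes, and 7 if every probe set was required to pass, against 44.9%, Hk2 dropping out in both cases. The count of genes 2-fold or more apart, 5 of 8 as reported, was 3 with median-centred signals (all genes 10.2% in each direction), as Pfkl and Pgk1 fell just under 2-fold, and 1 with log2 of the signal plus an offset of 32 (all genes 4.50% and 3.78%), which shrinks differences by construction. It stayed between 4 and 5 with the deposited scaling, no floor, no filter, the mean over probe sets and the control level at the maximum. So it did with both signals above the floor, an alternative chosen after seeing the data. Under these settings 6.62% (no filter) to 14.8% (no floor) of all genes were 2-fold or more higher in sample 1. In sample 2 it was 6.44% to 11.3%. Dropping the filter could not change the members' count, since all 8 had passed it. At thresholds chosen after seeing the data the members' count was 6 at 1.5-fold (all genes 22.5% higher in sample 1) and 1 at 3-fold (3.53%). The median difference lay between 0.77 and 1.08 under 9 alternatives, against 0 to 0.07 over all genes. No paired analysis was possible because the labels give 1 group only. Leaving out a sample leaves no difference to compute. Without deposited detection calls, signals near the floor have no reliable order, which limits Hk2 most.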
